A study of Mus musculus with 6 samples.

Results

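The miR-183, miR-96 and miR-182 cluster is a group of 3 microRNA (miRNA) hairpins that lie side by side in the genome and are transcribed together. Its members were taken as every deposited row named for either arm of these hairpins, which gave 6 rows of the 778 miRNAs listed. The 4 abundant rows, mmu-miR-182-5p, mmu-miR-183-5p, mmu-miR-96-5p and mmu-miR-183-3p (written below without the species prefix), passed the filter on low values and were tested among 408 miRNAs, and the other arms, miR-182-3p and miR-96-3p, were too rare to test.

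The miRNAs were sequenced from mouse primary mesangial cells, the contractile cells that hold the capillary loops of the kidney glomerulus together, in 3 Control libraries and 3 TGF-beta1 libraries. The TGF-beta1 group had received TGF-β1, a cytokine that drives matrix production and scarring in the kidney, at 10 ng/ml for 72 h, and what the Control cells received in its place was not stated in the sources used here. The medium described for the cells was high in glucose (25.5 mM) with 20% serum, with passages 3 to 6, so no normal-glucose group was among the samples. Whether replicates came from separate cultures was not stated, so the p-values measure the spread between these libraries, which may be technical.

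A miRNA is cut from the arm of a hairpin and loaded into an Argonaute protein, where bases 2 to 8, the seed, pair with target messages and lower their output. Hairpins that share a primary transcript start from equal numbers of copies, but each is processed, loaded and degraded on its own, so mature levels need not be equal. The cluster is best known from sensory organs, where it is abundant in photoreceptors and hair cells, and miR-96 seed mutations cause hearing loss.

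The mature sequences are shown because the 3 abundant 5p strands are close relatives that short reads have to tell apart. They were taken from RefSeq (table build GRCm38.p6), 5′ to 3′, with the seed in capitals.
miR-182-5p: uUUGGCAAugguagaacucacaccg
miR-183-5p: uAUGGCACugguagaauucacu
miR-96-5p: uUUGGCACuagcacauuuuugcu
miR-183-3p: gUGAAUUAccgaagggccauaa
The 3 5p strands all hold UGGCA at bases 3 to 7, and differ from one another only at the ends of the seed. Counted from 1 at the 5′ end, miR-183-5p and miR-96-5p differ in the seed by A2U, miR-96-5p and miR-182-5p by C8A, and miR-183-5p and miR-182-5p by both A2U and C8A, the first-named miRNA's base standing first. Over the whole strand, miR-183-5p and miR-182-5p matched at 18 of 22 positions, miR-183-5p and miR-96-5p at 13 of 22, and miR-96-5p and miR-182-5p at 12 of 23. The letters UGGCA at this position occurred in 5 of 1679 RefSeq mature mouse miRNAs (0.298%), and among the 581 listed rows that could be matched by name the 3 that held them (0.516%) were these cluster members. RefSeq gives the seed of miR-96-5p to miR-1271-5p as well, which was not analysed here. The miR-183-3p strand had a seed of its own.

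In the NCBIM37 build, annotated by GENCODE, the hairpins lie on the minus strand of chromosome 6, Mir183 at chr6:30119668-30119737, Mir96 at chr6:30119446-30119551 and Mir182 at chr6:30115918-30115992. In the direction of transcription Mir183 comes first, Mir96 follows after a gap of 116 bases and Mir182 after a further 3453 bases, so the 3 hairpins span 3820 bases. They overlap no other gene in that annotation, and are intergenic between the protein-coding genes Nrf1, 12459 bases away, and Ube2h, 41551 bases away. RefSeq lists a long non-coding RNA, Mirc35hg, that spans the 3 hairpins.

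The libraries held 16478281 to 20169254 reads, so that 1 read was worth 0.0496 to 0.0607 RPM, the reads of a miRNA scaled to a library of 1000000 reads. Of these, 20.4% ± 0.142 (SD, n = 3) of the Control reads and 27.7% ± 0.752 (SD, n = 3) of the TGF-beta1 reads fell outside the listed rows, and the total behind each RPM value includes these reads. Scaled instead to the sum of the listed rows, the log2 changes of the members were 1.81 for miR-182-5p, 1.42 for miR-96-5p, 1.30 for miR-183-5p and 1.16 for miR-183-3p, and all 4 stayed called. Across the 408 tested miRNAs the median log2 change was -0.17, and -0.03 after TMM scaling. RPM is not divided by length, and strands of 22 to 25 bases can differ in how well they are ligated and sequenced, so levels of different members are compared below as read counts and not as copies per cell.

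All 4 tested members rose with TGF-β1. Each was called higher (limma, Benjamini-Hochberg adjusted p under 0.05 over all 408 miRNAs and a log2 change above 1), where 18 of 408 miRNAs, 4.41%, were called higher and 32, 7.84%, were called lower. Without the fold threshold 71 miRNAs, 17.4%, were higher in limma. The 4 members were also called higher by edgeR with library totals (32 miRNAs in all, 7.84%), edgeR with TMM (45, 11.0%) and DESeq2 (46, 11.3%). The fold of the means was 3.31 for miR-182-5p, 2.56 for miR-96-5p, 2.39 for miR-183-3p and 2.38 for miR-183-5p. Of these, the study had already reported miR-96-5p and miR-183-3p as up-regulated in these data, at 2.56-fold and 2.39-fold. miR-182-5p and miR-183-5p were not among the miRNAs it listed as changed. Over the 4 tested members the median log2 change was 1.23. In bulk RNA a rise in the level per cell cannot be told apart from a larger share of cells that hold the miRNA.

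miR-182-5p was the most abundant member in every library. It stood at 56.4, 50.5 and 56.2 RPM in Control replicates 1, 2 and 3, and at 164.0, 135.3 and 240.2 RPM in TGF-beta1 replicates 1, 2 and 3. The groups did not overlap, and TGF-beta1 replicate 3 was well above the other treated libraries. The mean went from 54.3 ± 3.35 RPM to 179.8 ± 54.2 RPM (SD, n = 3), which moved it from rank 93 to rank 61 among the 778 listed miRNAs. Its log2 change of 1.67 ± 0.20 (SE, on the log2(RPM + 1) scale, 95% interval 1.21 to 2.13, limma adjusted p = 0.000522) was the 2nd largest rise among the tested miRNAs on this scale, which shrinks the changes of rarer miRNAs. It ranked 9th in edgeR, with library totals or TMM, and 10th in DESeq2. Without TGF-beta1 replicate 3 the fold of the means was 2.75.

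miR-96-5p, in whose seed mutations cause hereditary deafness, was read at 12.9, 9.53 and 9.99 RPM in the Control libraries and at 26.5, 27.7 and 28.7 RPM in the TGF-beta1 libraries. Here the treated libraries lay close together and the Control libraries were spread, with Control replicate 1 the highest, and the groups did not overlap. The mean rose from 10.8 ± 1.84 to 27.7 ± 1.11 RPM (SD, n = 3), with a log2 change of 1.29 ± 0.15 (SE, 95% interval 0.95 to 1.63, limma adjusted p = 0.000420). miR-96-5p went from rank 176 to rank 122.

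miR-183-5p, whose hairpin is the first of the transcript, stood at 11.8, 11.8 and 11.3 RPM in Control and at 23.7, 26.2 and 32.9 RPM in the TGF-beta1 libraries. Its Control libraries were nearly equal, TGF-beta1 replicate 3 was again the highest, and the groups did not overlap. The mean rose from 11.6 ± 0.289 to 27.6 ± 4.76 RPM (SD, n = 3), with a log2 change of 1.17 ± 0.15 (SE, 95% interval 0.83 to 1.51, limma adjusted p = 0.000660). In both groups miR-183-5p and miR-96-5p were neighbours in level and did not differ beyond their spread: their ratio ran from 0.807 to 1.10 in Control and from 0.872 to 1.12 in TGF-beta1 libraries.

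miR-183-3p, the other strand of the miR-183 hairpin, was the rarest of the tested members. It stood at 3.52, 3.48 and 2.67 RPM in Control, from 47 to 58 reads a library, and at 8.48, 7.03 and 7.55 RPM in the TGF-beta1 libraries, from 126 to 171 reads. The groups did not overlap, and the highest library was TGF-beta1 replicate 1, not replicate 3. The mean rose from 3.22 ± 0.481 to 7.69 ± 0.732 RPM (SD, n = 3), with a log2 change of 1.04 ± 0.15 (SE, 95% interval 0.70 to 1.39, limma adjusted p = 0.00108). The pseudocount of 1 RPM makes the log2 change understate the fold at such levels. The log2 change was 0.95 without Control replicate 3 and 0.98 without TGF-beta1 replicate 1, under the fold threshold in both cases.

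The 2 rare arms were counted in single reads. miR-182-3p had 1, 1 and 2 reads in Control and 6, 10 and 5 reads in the TGF-beta1 libraries, and the pooled RPM was 4.83 times as high (95% exact counting interval 1.63 to 19.4). miR-96-3p had 0, 0 and 1 reads in Control and 3, 3 and 5 reads in the TGF-beta1 libraries, a pooled ratio of 10.1 with a counting interval of 1.47 to 435.8. Both arms stayed out of the test, and these 2 intervals cover counting error only. The listed values did not overlap for either arm, but a count of 0 allows up to 3 reads, 0.149 to 0.182 RPM in these libraries, so the groups were not separated for miR-96-3p at this depth. The 4 tested members were without overlap between the groups, with TGF-beta1 above Control, as were 85 of the 408 tested miRNAs (20.8%).

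**Figure D1:**
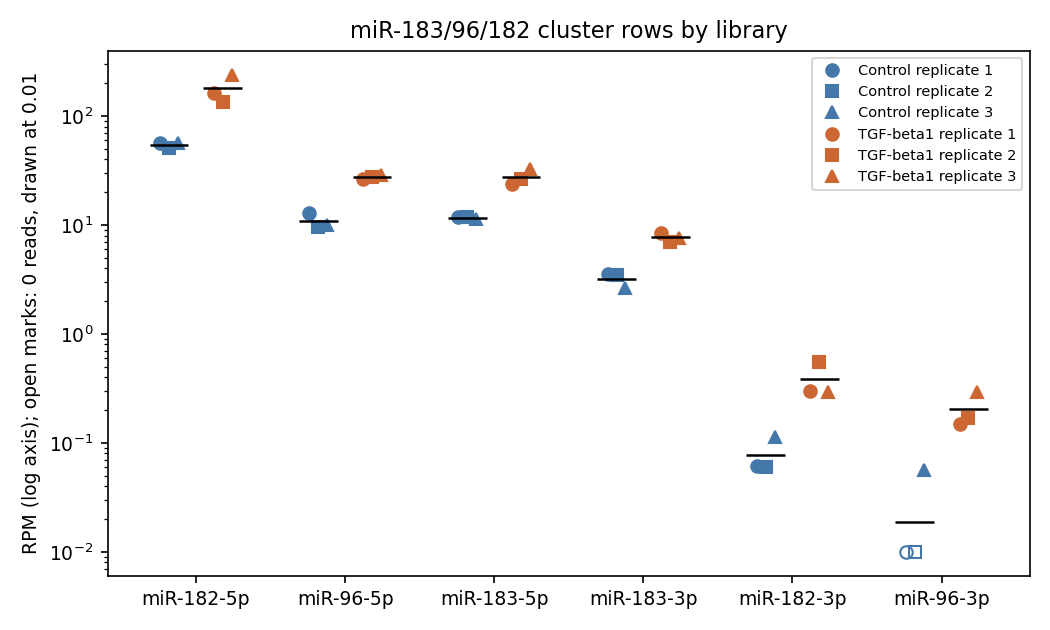
RPM of the 6 cluster rows (log axis) in the 3 Control and 3 TGF-beta1 libraries, where each mark is a library, its shape gives the replicate number and each bar is the group mean; libraries with 0 reads are open marks drawn at 0.01. The TGF-beta1 libraries lie above the Control libraries in the 4 tested rows, and TGF-beta1 replicate 3 is the highest mark for miR-182-5p at 240.2 RPM.

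Summed over the 6 rows, the cluster gave 84.7, 75.4 and 80.3 RPM in the Control libraries and 223.2, 197.0 and 310.0 RPM in the TGF-beta1 libraries. The mean rose from 80.1 ± 4.65 to 243.4 ± 59.1 RPM (SD, n = 3), 3.04 times. The libraries held 1257 to 1415 cluster reads in Control and 3530 to 5297 in TGF-beta1. miR-182-5p took 67.8% ± 1.84 of them in Control and 73.2% ± 4.41 in TGF-beta1 (SD, n = 3). These shares overlapped, since Control replicate 3 was at 70.0% and TGF-beta1 replicate 2 at 68.7%. The share of miR-183-5p was 14.5% ± 0.977 and 11.5% ± 1.55, that of miR-96-5p 13.5% ± 1.58 and 11.7% ± 2.41, and that of miR-183-3p 4.03% ± 0.656 and 3.27% ± 0.730, in Control and TGF-beta1 respectively.

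Whether the members rose in proportion was read from the ratio of their reads within each library, which does not depend on the library total. With 3 libraries against 3 the exact two-sided permutation test cannot go below p = 0.1, so no ratio could reach 0.05, and the intervals of the differences say more than the p-values. The ratio of miR-182-5p to miR-183-5p was 4.79, 4.27 and 4.97 in Control and 6.90, 5.16 and 7.29 in the TGF-beta1 libraries. These did not overlap, and the ratio was 1.37 times as high with TGF-β1 (95% interval 0.988 to 1.89, exact permutation p = 0.1, Benjamini-Hochberg adjusted p = 0.6 over the 6 pairs). An equal rise of both members lies within this interval, near its lower end.

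The ratio of miR-182-5p to miR-96-5p was 4.36, 5.30 and 5.62 in Control and 6.18, 4.88 and 8.36 in the TGF-beta1 libraries. The groups overlapped at TGF-beta1 replicate 2, and the fold was 1.25 (95% interval 0.770 to 2.02, exact permutation p = 0.3, adjusted p = 0.6). The ratio of miR-182-5p to miR-183-3p went 1.34 times as high (95% interval 0.769 to 2.34, exact permutation p = 0.3, adjusted p = 0.6). All 3 ratios of miR-182-5p had their smallest log2 difference without TGF-beta1 replicate 3: it went from 0.32 to 0.12 for miR-96-5p, from 0.45 to 0.35 for miR-183-5p and from 0.42 to 0.18 for miR-183-3p. For miR-183-5p it was nearly as small without Control replicate 2 (0.386) or TGF-beta1 replicate 1 (0.393), so that ratio did not lean on TGF-beta1 replicate 3 alone.

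The other 3 ratios overlapped between the groups. The ratio of miR-96-5p to miR-183-5p differed 1.10-fold between the groups (95% interval 0.789 to 1.52, exact permutation p = 0.5, adjusted p = 0.6), and that of miR-96-5p to miR-183-3p 1.08-fold (95% interval 0.763 to 1.52, exact permutation p = 0.5, adjusted p = 0.6). For the 2 strands of the miR-183 hairpin, the ratio of miR-183-3p to miR-183-5p was 0.299, 0.294 and 0.236 in Control and 0.357, 0.268 and 0.229 in the TGF-beta1 libraries. The groups overlapped throughout, with a fold of 1.02 (95% interval 0.670 to 1.55, exact permutation p = 1). Without TGF-beta1 replicate 3 the log2 difference went from 0.13 to 0.24 for miR-96-5p to miR-183-5p and from 0.11 to 0.07 for miR-96-5p to miR-183-3p. For miR-183-3p to miR-183-5p it went from 0.03 to 0.17. The differences with and without miR-182-5p then overlapped, with miR-182-5p to miR-183-5p still the largest at 0.35. Without TGF-beta1 replicate 2 they lay apart. The ratios of miR-182-5p to miR-96-5p, miR-183-5p and miR-183-3p then differed by 0.51, 0.60 and 0.55. The other ratios, in the order above, differed by 0.10, 0.04 and 0.06. No test compared one ratio with another. The 5p strand took 78.4% ± 2.18 of the miR-183 reads in Control and 78.0% ± 3.91 in TGF-beta1 (SD, n = 3). Strand use was more one-sided in the other hairpins, where the 5p strand held 99.8% ± 0.326 and 99.3% ± 0.249 of miR-96 reads and 99.9% ± 0.0514 and 99.8% ± 0.153 of miR-182 reads.

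**Figure D2:**
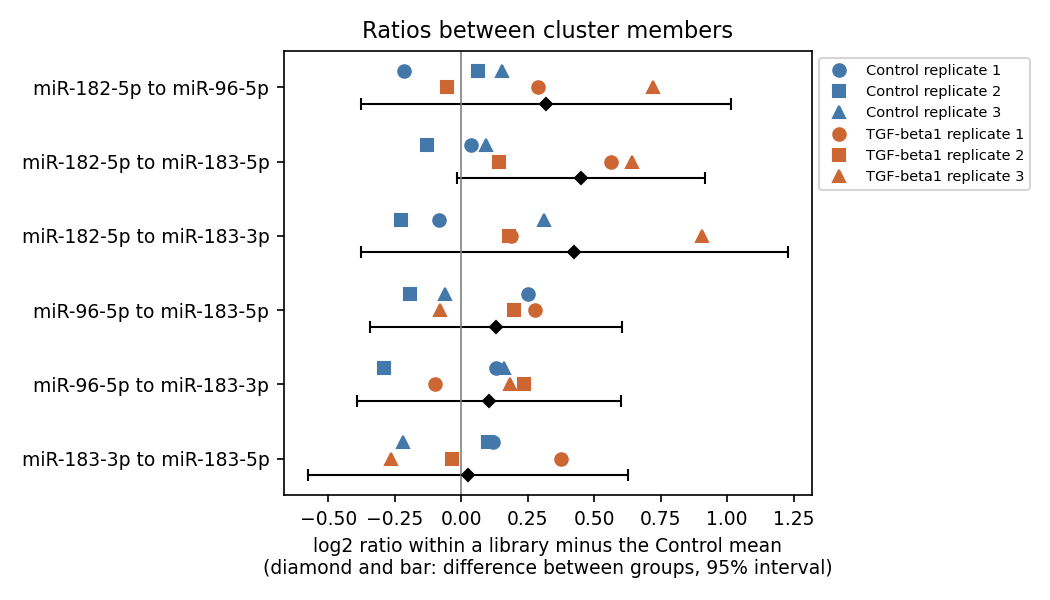
Log2 ratio of reads within each library, minus the Control mean, for the 6 pairs of tested members; each coloured mark is a library, and the black diamond and bar are the difference between the groups and its 95% interval. The groups overlap in 5 of the 6 pairs and are apart in the ratio of miR-182-5p to miR-183-5p, where the ratio itself was 4.27 to 4.97 in Control and 5.16 to 7.29 in TGF-beta1.

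The spread between replicates is given beside the counting error, the spread expected from counting alone, and was not tested between members. With so few libraries the observed spread can fall below the counting error. Among the TGF-beta1 libraries the coefficient of variation of miR-182-5p was 30.1% (counting 1.78%), and among the Control libraries it was 6.17% (counting 3.30%). miR-183-5p had 17.2% in TGF-beta1 (counting 4.47%) and 2.49% in Control (counting 7.13%). For miR-96-5p it was 4.0% in TGF-beta1 (counting 4.44%) and 17% in Control (counting 7.44%). miR-183-3p was near its counting error in both groups, at 14.9% against 13.6% in Control and 9.52% against 8.45% in TGF-beta1. Leaving out the library farthest from the others narrows the spread in any case. The values without single libraries therefore only describe which library stood apart. Without TGF-beta1 replicate 3 the treated value was 13.5% for miR-182-5p and 7.04% for miR-183-5p. It was 39.5% and 16.0% without TGF-beta1 replicate 1, and 26.7% and 22.9% without TGF-beta1 replicate 2. Without Control replicate 1 the Control value of miR-96-5p was 3.30%, without Control replicate 2 that of miR-182-5p was 0.255%, and without Control replicate 3 that of miR-183-3p was 0.867%. These Control values rest on 2 libraries each and lie under the counting errors given above. The residual SD of miR-182-5p on the log2 scale, 0.303, was above that of 81.6% of the tested miRNAs, whose median was 0.178, and the other 3 members were between the 37.3rd and the 44.1st percentile.

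**Figure D3:**
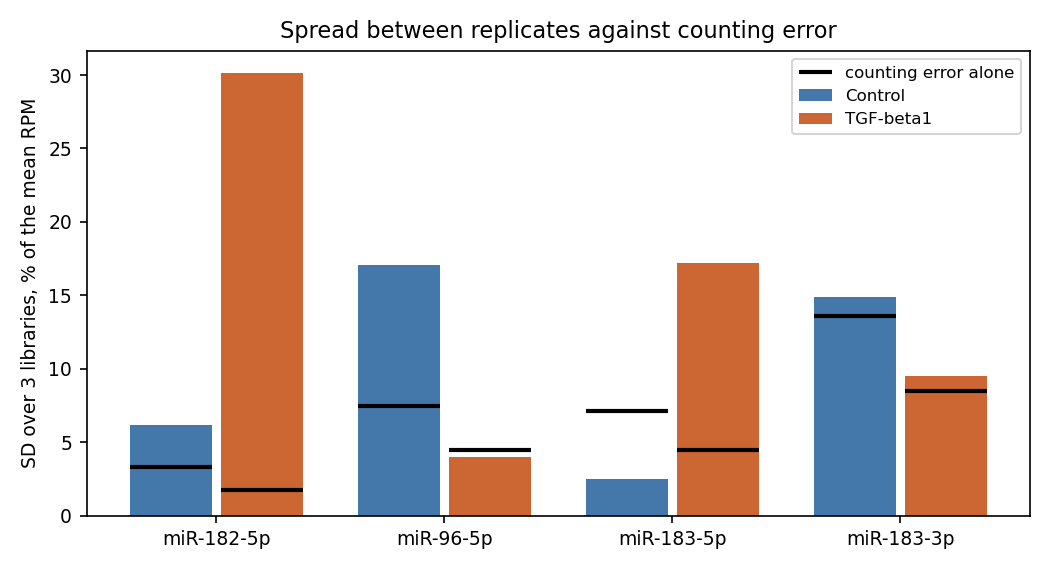
SD over the 3 libraries of each group as a percent of the mean RPM (bars) for the 4 tested members, with the value that counting error alone gives as a black line. miR-182-5p in the TGF-beta1 group is the highest, at 30.1% against 1.78% from counting.

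The pattern of miR-182-5p was set beside that of every other tested miRNA by the root mean square difference of their centred log2(RPM + 1) values over the 6 libraries, where 0 is an equal course. The nearest was miR-455-3p at 0.262, which went from 1.34 ± 0.181 to 6.60 ± 0.305 RPM (SD, n = 3). miR-224-5p followed at 0.293, with 12.4 ± 0.724 and 30.1 ± 2.65 RPM, and miR-433-3p at 0.301, with 16.0 ± 0.222 and 44.2 ± 1.24 RPM. miR-183-5p was the 4th nearest at 0.301 and miR-96-5p the 5th at 0.310, and miR-183-3p was the 14th at 0.414. miR-135a-2-3p at 0.327 and miR-434-3p at 0.328 came between them. The 1 RPM added before the log shrinks the changes of rarer miRNAs, miR-455-3p and miR-183-3p among them. This order therefore does not show which miRNAs are most alike in fold. Like miR-182-5p, miR-224-5p, miR-135a-2-3p and miR-434-3p were highest in TGF-beta1 replicate 3, while miR-455-3p and miR-433-3p were highest in TGF-beta1 replicate 2.

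**Figure D4:**
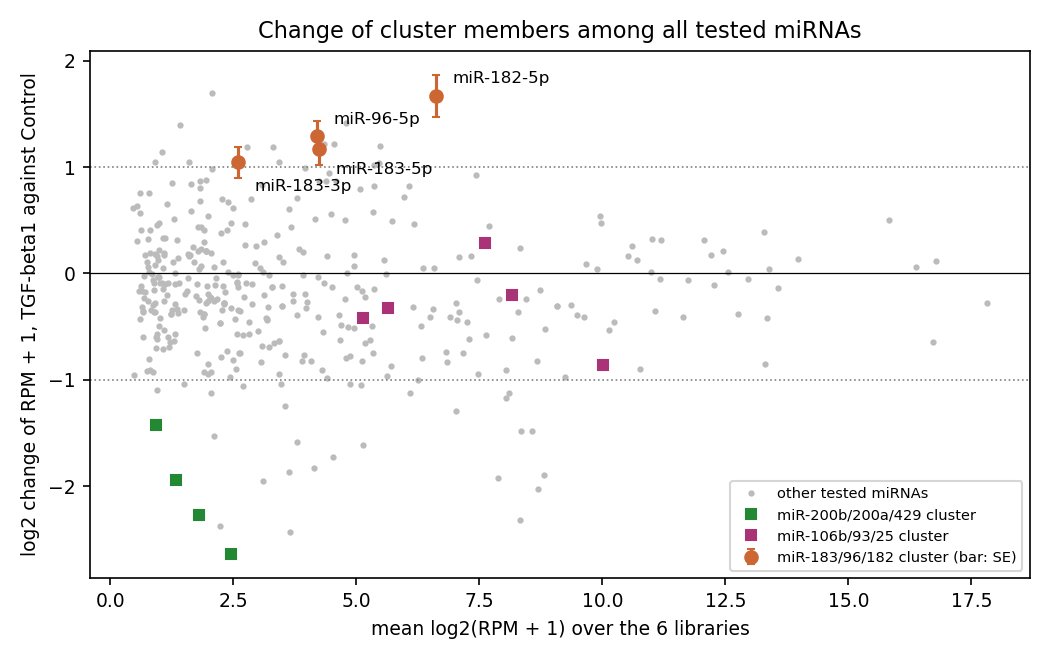
Log2 change with TGF-β1 against mean log2(RPM + 1) for the 408 tested miRNAs, one point each, with the 4 cluster members marked (bars are SE), the strands of 2 other clusters as squares, and dotted lines at the fold threshold. The members lie between 1.04 and 1.67, above the median of all tested miRNAs at -0.17.

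The cluster was set beside 2 other clusters, chosen by name, and no statement about further clusters follows from them. All 4 tested strands of the cluster of miR-200b, miR-200a and miR-429, which holds back epithelial-to-mesenchymal transition, were called lower (limma, against 7.84% of all tested miRNAs), among them miR-200a-3p from 12.7 ± 0.712 to 1.23 ± 0.465 RPM (SD, n = 3, log2 change -2.64 ± 0.18 SE, adjusted p = 4.17e-05). Of 5 tested strands of the cluster of miR-106b, miR-93 and miR-25, limma called 0 in either direction at the fold threshold, where 4 had an unadjusted and 3 an adjusted p under 0.05, and edgeR and DESeq2 called 0 as well. The strand of these with the largest change was miR-25-3p, which went from 1388 ± 81.5 to 768.6 ± 99.8 RPM (log2 change -0.86 ± 0.10 SE, adjusted p = 0.000522). The strands did not move together. miR-25-5p, from the same hairpin, rose from 176.7 ± 10.1 to 215.8 ± 12.8 RPM (log2 change 0.29 ± 0.10 SE, limma adjusted p = 0.0370). The log2 changes of miR-93-5p, miR-106b-5p and miR-106b-3p were -0.21, -0.32 and -0.42. Within libraries the ratio of miR-182-5p to miR-200a-3p was 4.2 to 4.4 in Control and 122.5 to 186.5 in TGF-beta1, 34.9 times as high (95% interval 24.8 to 49.2, exact permutation p = 0.1, adjusted p = 0.1 over 2 ratios, the smallest the design allows). That of miR-182-5p to miR-25-3p was 0.0384 to 0.0403 in Control and 0.185 to 0.347 in TGF-beta1, 5.84 times as high (95% interval 3.26 to 10.4, exact permutation p = 0.1, adjusted p = 0.1). Both intervals pool the spread of the groups, though the log2 SDs were 0.0449 and 0.0365 in Control and 0.304 and 0.522 in TGF-beta1. They are therefore likely too narrow. Each ratio divides a miRNA that rose by one that fell in these same libraries. Its separation follows from those changes and says nothing further about the cluster.

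The cluster was read beside miRNAs linked to TGF-β signalling in textbook and kidney work. The study had already reported miR-433-3p, miR-200a-3p, miR-27a-3p, miR-130a-3p and miR-130b-3p as changed in these data. The list was chosen with earlier results known, so its counts are no independent support. It also leaves out miR-96, which the study names as regulated by TGF-β1 and reports as raised in these data. Of 30 such names 27 were listed and 22 tested. In limma 1 of the 22 was called higher, against 4.41% of all tested miRNAs, namely miR-433-3p (log2 change 1.41 ± 0.11 SE, adjusted p = 4.62e-05), and 6 were called lower, against 7.84% of all, namely miR-27a-3p, the strands miR-429-3p, miR-200b-3p and miR-200a-3p of the cluster named above, and the seed relatives miR-130b-3p and miR-130a-3p. Their median log2 change was -0.09, against 1.23 for the 4 cluster members and -0.17 for all tested miRNAs. The profibrotic miR-21-5p had a log2 change of 0.13 (limma adjusted p = 0.163).

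Markers of cell types were summed in RPM. The 6 listed miRNAs of mesenchymal and contractile cells gave 17381 to 18864 RPM in Control and 17955 to 21743 RPM in TGF-beta1 libraries, mostly from miR-21-5p and miR-143-3p. This sum hides members that went both ways. miR-145-5p rose from 127.4 ± 26.7 to 238.6 ± 7.91 RPM, and miR-199a-5p fell from 14.0 ± 2.04 to 6.93 ± 2.25 RPM (SD, n = 3). On average miR-21-5p and miR-143-3p were also higher, and miR-199a-3p and miR-214-3p lower. The 4 listed sensory and neural miRNAs, the tissues in which the cluster is best known, gave 3.57 to 4.13 RPM in Control and 3.10 to 3.35 RPM in TGF-beta1, with miR-124-3p and miR-204-5p lower on average in TGF-beta1 and miR-184-3p and miR-9-5p higher. miR-184-3p, at 0.0599 to 0.243 RPM in Control and 0.391 to 0.702 RPM in TGF-beta1, thus moved with the cluster. Its values rest on only 1 to 4 reads a library in Control and 7 to 12 in TGF-beta1, and its part in the result was not tested. The 6 epithelial miRNAs gave 22.2 to 25.5 RPM in Control and 1.67 to 2.53 RPM in TGF-beta1, and 3 of them were called lower, while miR-141-3p, miR-205-5p and miR-200c-3p were at 0 in most libraries. The 3 tubular miRNAs gave 293.1 to 307.7 RPM in Control and 342.2 to 365.5 RPM in TGF-beta1, and the 2 listed endocrine miRNAs 4.92 to 6.43 RPM and 9.37 to 12.5 RPM, nearly all from miR-7a-5p. The other endocrine miRNA, miR-375-3p, did not rise, at 0.284 to 0.668 RPM in Control and 0.248 to 0.447 RPM in TGF-beta1. The tubular and endocrine sums moved up with the cluster, and their part in its rise was not tested. The 3 listed blood cell miRNAs and the 2 endothelial miRNAs stayed under 1 RPM in each library, the single hepatocyte miRNA gave 24.2 to 27.3 RPM and 13.1 to 13.9 RPM, and the 3 muscle miRNAs 3440 to 3646 RPM and 3285 to 3465 RPM, nearly all from miR-206-3p. No listed marker was at 0 in all 6 libraries.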

How the data were processed

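Small RNA was sequenced on an Illumina HiSeq instrument in 3 Control and 3 TGF-beta1 libraries. The authors removed short reads, aligned the rest to miRBase with Bowtie (version not given in the sources used here), and deposited RPM per miRNA, under a column heading of TPM. The genome build of the miRNA reads was not given in the sources used here.

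From the RPM steps, each library's total and the whole reads behind every value were recovered (100.0% of values whole within 0.002 reads). limma 3.58.1 (R 4.3.3), with a trended variance, was fitted to log2(RPM + 1) over all miRNAs that passed edgeR 4.0.16 filterByExpr (minimum count 10), with Benjamini-Hochberg adjustment over the 408 tested. miRNAs were called where the adjusted p was below 0.05 and the log2 change exceeded 1 in size. The steps were tested on simulated data. Ratios used exact two-sided permutation tests (Python 3.11.15, scipy 1.17.1) and 95% intervals from the pooled spread, which takes the spread as equal in the groups. edgeR and DESeq2 1.42.0 on the recovered reads, other scalings, filters, pseudocounts and left-out replicates were alternatives. The named miRNAs were the cluster rows, miRNAs that share a member's seed, the rows of 2 other clusters, the called miRNAs of the TGF-β-linked list, and the 5 tested miRNAs outside the cluster nearest to miR-182-5p. miR-21-5p and the single marker miRNAs were named outside this rule, after their values were seen. Ranks of the rise by edgeR and DESeq2 and the spread without single libraries were added after seeing the data. Members and lists were chosen with earlier results of these data known. Intervals of pooled reads and floors cover counting error only, since no molecular identifiers were described, while the other intervals rest on the spread between libraries.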

Additional observations from a re-analysis of the deposited data

Results flagged for a closer look

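Reads outside the listed rows took 20.4% ± 0.142 (SD, n = 3) of the Control library totals and 27.7% ± 0.752 (SD, n = 3) of the TGF-beta1 totals, a difference of 7.32 percentage points (exact two-sided permutation p = 0.1, the smallest that 3 against 3 libraries can give). These reads enter the total behind every RPM value, and not the ratios between members.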

How the results depend on the processing

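miR-182-5p kept its call under every alternative but the stricter threshold, with log2 changes of 1.44 to 1.98 and a highest adjusted p of 0.00493. With a pseudocount of 10 the changes were 0.79 for miR-183-5p, 0.42 for miR-183-3p and 0.86 for miR-96-5p, which left 1 member called, 2 miRNAs called higher, 15 called lower and 3 TGF-β-linked miRNAs called lower. At an absolute log2 change above 2 none of the 4 members was called by limma, edgeR or DESeq2 (changes of 1.67, 1.29, 1.17 and 1.04 in limma, all 4 with an unadjusted p under 0.05). At that threshold limma called 0 miRNAs higher (78 at an unadjusted p under 0.05; edgeR with library totals called 7, DESeq2 8), 6 lower, and of the linked miRNAs 0 higher (6 at an unadjusted p under 0.05; edgeR and DESeq2 0) and 2 lower. Leaving out single replicates gave 0.95 to 1.10 for miR-183-3p and 3 to 4 members called, and 1 to 2 linked miRNAs called higher, 2 without Control replicate 2 or TGF-beta1 replicate 3. At any fold 71 miRNAs were higher, 130 lower and 6 linked miRNAs higher. The count of miRNAs called higher was 46 by DESeq2, 45 by edgeR on TMM, 32 by edgeR on library totals, 32 at pseudocount 0.1, and 35, 31 and 30 under upper-quartile, TMM and median-of-ratios scaling. Those called lower were 54 by edgeR on library totals and at pseudocount 0.1, 21 under median-of-ratios and 19 under upper-quartile scaling. Linked miRNAs called higher were 3 with TMM, median-of-ratios, upper-quartile and summed-row scaling, edgeR on TMM and DESeq2. The log2 difference of the ratio of miR-96-5p to miR-183-3p was -0.040 to 0.21 without single replicates, lowest without Control replicate 2, and 0.24 with a pseudocount of 1, and that of miR-183-3p to miR-183-5p was -0.13 with a pseudocount of 1 and -0.15 to 0.17 without single replicates; the cause was not tested. Whether same-numbered libraries were paired was not stated. The correlations of their deviations from the group means (-0.08, -0.21 and -0.34) cannot settle it with so few libraries. With a replicate block the 4 members stayed called, with adjusted p of 0.000775, 0.00257, 0.00354 and 0.00590, and 18 miRNAs were called higher and 32 lower. The rarest members, at 47 to 58 Control reads for miR-183-3p and 0 to 2 for the untested arms, limit what the depth can show.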
